A study of Homo sapiens with 22 samples.

Results

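The genes examined were the human HLA class I genes HLA-B, HLA-C, HLA-E, HLA-F and HLA-G, together with B2M, TAP1, CIITA and NLRC5, which is 9 of 19974 protein-coding genes on chromosomes 1 to 22 and X. Their chromatin was read from every deposited ATAC or CTCF region that overlapped the RefSeq gene body plus 25 kb on each side in the hg38 build. This gave 247 of the 532810 regions in 4 lists: 68 of 155746 in the HFFc6 ATAC list, 66 of 189982 in the H1 ATAC list, 55 of 82297 in the HFFc6 CTCF list and 58 of 104785 in the CTCF list whose name says hESC. A region was called shared when it overlapped a region of the other list of the same target by at least 1 bp, and otherwise it was called HFFc6-only, H1-only or hESC-only.

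HFFc6 is a subclone of human foreskin fibroblasts immortalised with telomerase, and H1 is an established line of human embryonic stem cells; neither carried a further treatment in the labels. ATAC-seq, which marks open chromatin by Tn5 insertion, was run on 8 HFFc6 and 2 H1 libraries, and Cut&Tag for the insulator protein CTCF on 2 HFFc6 libraries. The 8 HFFc6 ATAC libraries carried 2 different R labels and 4 T labels, which no source explains, and the CTCF library titles start with HFF1 while their cell line label reads HFFc6. The hESC-named CTCF list is described by no sample label, and no source used here gives its assay or line. A further 10 HFFc6 libraries (H3K4me3, H3K27ac and SMC1) were not analysed here.

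Each list stood for its whole group, with no value per library, so no difference between the cell lines could be tested and every comparison below is a description of these lists. Read depth cannot be read from the lists. Fold enrichment is the authors' value for each peak, and it orders regions within 1 list; between lists it is only set side by side. In a list made from bulk cells, a site open in fewer cells and a site less open in each cell cannot be told apart. Regions were wider in the HFFc6 ATAC list, with a median of 707 bp, than in the H1 ATAC list, with 301 bp.

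The lists were set against cell type markers. HFFc6-only ATAC regions outnumbered H1-only ones at 7 of 7 fibroblast marker genes, for instance 14 against 3 at the collagen gene COL1A2. They were fewer at 6 of 7 stem cell marker genes, with 0 against 6 at the germline and pluripotency regulator PRDM14 and 4 against 11 at the pluripotency factor SOX2. The pluripotency genes POU5F1 and NANOG had no ATAC region within 1 kb of a start in either list, LIN28A, PRDM14 and ZFP42 had one in the H1 list alone, and SOX2 and DPPA4 had one in both lists. All 7 fibroblast markers had one in both lists. Of 7 blood cell markers, 4 had no ATAC region at the start in either list, among them PTPRC, MS4A1 and ITGAM. Another 2 had one in both lists, and CD14 had one in HFFc6 alone.

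An HLA class I molecule is a polymorphic heavy chain paired with the invariant light chain beta-2 microglobulin, encoded by B2M, and it shows peptides from inside the cell to CD8 T cells and natural killer cells. The peptides are cut by the proteasome and carried into the endoplasmic reticulum by the TAP transporter, of which TAP1 is a subunit. Class I promoters are known for an upstream NF-kB site, an interferon-stimulated response element and an SXY module that binds the RFX complex, CREB-family factors and NF-Y; NLRC5 is recruited to that module at class I genes and CIITA, the master regulator of class II genes, can also act there. CTCF holds loop ends and domain borders along the HLA region and elsewhere.

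The sequences before the starts are shown because ATAC regions of both lists lay on those of HLA-B, HLA-C, HLA-F, B2M and TAP1, and of H1 alone on that of HLA-G, and because the class I copies resemble each other. For each gene the 250 bases before 1 RefSeq start (GRCh38.p14) are given in the gene's direction. Capitals mark any match, on either strand, to GGGANTNCC (1 form of the NF-kB site), AANNGAAA (the core of an interferon response element), TGACG (a CRE half-site) or CCAAT (the NF-Y box). Other forms of these sites are left unmarked. For HLA-G the third of 3 listed starts is shown and for TAP1 the second of 2. The windows before the other listed starts of both genes held no match to any of these patterns.
HLA-B: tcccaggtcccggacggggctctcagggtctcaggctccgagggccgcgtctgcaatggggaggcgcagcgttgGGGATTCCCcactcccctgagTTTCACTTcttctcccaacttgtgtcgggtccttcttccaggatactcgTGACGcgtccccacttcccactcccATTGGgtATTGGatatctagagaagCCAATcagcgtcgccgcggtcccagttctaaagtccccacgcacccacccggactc
HLA-C: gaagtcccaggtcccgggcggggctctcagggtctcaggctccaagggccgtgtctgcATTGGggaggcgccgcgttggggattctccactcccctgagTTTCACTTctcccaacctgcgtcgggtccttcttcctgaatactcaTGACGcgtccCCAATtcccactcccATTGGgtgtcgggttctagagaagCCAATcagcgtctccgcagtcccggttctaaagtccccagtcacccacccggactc
HLA-F: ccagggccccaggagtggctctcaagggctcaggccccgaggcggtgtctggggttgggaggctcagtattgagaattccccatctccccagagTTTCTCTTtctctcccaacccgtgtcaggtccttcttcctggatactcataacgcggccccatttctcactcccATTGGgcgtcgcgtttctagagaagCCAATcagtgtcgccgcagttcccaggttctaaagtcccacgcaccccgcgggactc
HLA-G: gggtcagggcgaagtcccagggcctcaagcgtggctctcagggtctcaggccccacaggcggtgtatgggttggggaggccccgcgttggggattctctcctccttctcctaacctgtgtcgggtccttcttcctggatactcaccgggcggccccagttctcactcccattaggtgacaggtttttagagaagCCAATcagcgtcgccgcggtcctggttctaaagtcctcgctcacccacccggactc
B2M: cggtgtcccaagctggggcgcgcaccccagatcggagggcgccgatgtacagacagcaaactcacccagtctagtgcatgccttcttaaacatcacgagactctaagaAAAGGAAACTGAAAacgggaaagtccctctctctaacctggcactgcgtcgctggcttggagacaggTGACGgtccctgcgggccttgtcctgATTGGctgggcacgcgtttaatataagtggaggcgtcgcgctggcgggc
TAP1: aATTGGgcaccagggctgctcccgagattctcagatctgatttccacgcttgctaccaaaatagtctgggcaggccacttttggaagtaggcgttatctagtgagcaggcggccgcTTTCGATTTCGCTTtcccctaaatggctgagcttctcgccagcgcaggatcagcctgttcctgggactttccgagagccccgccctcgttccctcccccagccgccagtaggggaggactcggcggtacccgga

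These windows lie on chromosome 6 at chr6:31357180-31357429 for HLA-B and chr6:31272093-31272342 for HLA-C, both on the minus strand. They lie at chr6:29723184-29723433 for HLA-F and chr6:29827575-29827824 for HLA-G on the plus strand, and at chr6:32853705-32853954 for TAP1 on the minus strand. The B2M window is chr15:44711267-44711516 on the plus strand. Of the 9 genes, 6 matched an entry of the promoter table, and HLA-E, CIITA and NLRC5 are named only.

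All 4 motifs were present before HLA-B, as they were in 3 of 15813 protein-coding promoters (0.019%). The NF-kB letters matched there at the same 9 bases on both strands, 176 to 168 bases before the start, and were in 4.40% of all promoters. The interferon element letters, in 17.0% of all promoters, matched 155 to 148 bases before the start of HLA-B, 151 to 144 before HLA-C and 156 to 149 before HLA-F. They matched at 2 overlapping places before B2M and before TAP1, and nowhere in the HLA-G window. TGACG, in 25.5% of promoters, stood before HLA-B, HLA-C and B2M. CCAAT, in 34.4%, was present 3 times before HLA-B, 4 times before HLA-C, 2 times before HLA-F and once in each of the HLA-G, B2M and TAP1 windows. At HLA-B, HLA-C and HLA-G 1 of these copies lay 56 to 52 bases before the start, and at HLA-F 57 to 53. The percentages of all promoters count only the first listed start of each gene, while HLA-G and TAP1 are shown at 1 of several starts. A match to so short a pattern describes the letters only, and the lack of a match does not show that a site is absent.

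Aligned end to end, the HLA-B and HLA-C windows were identical at 89.0% of alignment columns, HLA-B and HLA-F at 79.8%, HLA-C and HLA-G at 77.9%, and HLA-B and HLA-G at 72.1%. The B2M and HLA-B windows were identical at 41.6%. No source used here says how reads that fit several class I copies were placed, and the alleles of the lines may differ from the reference, so regions at HLA-B, HLA-C, HLA-F and HLA-G are uncertain to that extent; the part of read placement was not tested.

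By a window of 1 kb around the start, all 9 genes had an ATAC region in both lists, as did 70.1% of all protein-coding genes. CTCF was in this window in both lists for 8 of the 9, against 60.6% of all genes. HLA-G was the exception, with CTCF in the hESC-named list alone. That region covered no start: it lay inside the gene, 786 bp from the nearest one, with a fold enrichment of 3.61. The start of a gene missing from the promoter table was taken as either end of its body. Counting only the low-coordinate end, which was chosen after seeing the data, left 8 genes for ATAC and 7 for CTCF, because no region of any list came within 1 kb of the low end of CIITA. With −log10 q of at least 10 the counts were 8 for ATAC and 6 for CTCF.

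At HLA-B, HLA-C, HLA-E, HLA-F, B2M and NLRC5 the ATAC summit, the base of highest signal, lay just before the start in both lists. In HFFc6 it lay 29 bases before the start of HLA-B, 77 before HLA-C, 31 before HLA-E, 79 before HLA-F, 106 before B2M and 25 before NLRC5. In H1 the distances were 110, 68, 62, 90, 65 and 43 bases in the same order. For HLA-E and NLRC5 the distance is from the low end of the body. Where a sequence is printed above, every one of these summits fell inside it.

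HLA-B, a classical heavy chain gene at chr6:31353875-31357179, had 2 HFFc6 and 4 H1 ATAC regions. None was HFFc6-only, against 2 H1-only. The start carried fold enrichments of 9.56 in HFFc6 and 12.46 in H1, and CTCF regions of 5.02 in HFFc6 against 4.42 in the hESC-named list. The strongest region of the neighbourhood in all 4 lists was another, overlapping the pseudogene DHFRP2, with its HFFc6 summit 9860 bp beyond the start. There the HFFc6 ATAC region chr6:31366615-31367449 had a fold enrichment of 16.91, against 21.49 in H1, and CTCF had 19.47 in HFFc6 against 20.73 in the hESC-named list. That HFFc6 CTCF region stood at percentile 99.8 of its list. An hESC-only CTCF region at chr6:31374229-31374833 had 14.8, the highest of the 20 hESC-only CTCF regions at the 9 genes, and overlapped an H1-only ATAC region of 5.59.

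HLA-C, the other classical heavy chain gene here, at chr6:31268749-31272092, had 2 HFFc6 and 5 H1 ATAC regions, with 0 HFFc6-only and 2 H1-only. Its start region was the strongest of the gene in both ATAC lists, at 16.85 in HFFc6 and 12.84 in H1. In HFFc6 1 region of 1458 bp, chr6:31271204-31272661, overlapped separate H1 regions of 329 and 362 bp. CTCF at the start had 8.31 in HFFc6 against 8.32 in the hESC-named list, and it was the only shared CTCF region of the gene. Away from the start, a shared ATAC region with its HFFc6 summit 22512 bp below the gene had 12.92 in HFFc6 and 5.21 in H1 and carried CTCF in the HFFc6 list alone, at 4.17.

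HLA-E presents leader peptides of other class I chains to natural killer cells, and lies at chr6:30489509-30494194. It had 6 HFFc6 and 7 H1 ATAC regions, 2 of them HFFc6-only and 2 H1-only. The start had fold enrichments of 15.15 in HFFc6 and 12.44 in H1, with CTCF at 9.61 in HFFc6 against 10.68 in the hESC-named list. A site 7282 bp below the start by its HFFc6 summit was present in all 4 lists, at 10.2 in HFFc6 and 18.22 in H1 for ATAC and at 12.43 in HFFc6 against 14.64 in the hESC-named list for CTCF. The lists parted above the gene. The HFFc6-only ATAC region chr6:30496247-30497114 had 14.81, at percentile 90.7 of its list, and coincided with an HFFc6-only CTCF region of 10.63, the highest of the 20 HFFc6-only CTCF regions. Near the high-coordinate end of the gene, H1 alone had an ATAC region of 5.27 under an hESC-only CTCF region of 6.66.

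HLA-F, a non-classical heavy chain gene at chr6:29723434-29738532, had 9 HFFc6 and 9 H1 ATAC regions, with 3 HFFc6-only and 2 H1-only. Its start had 15.27 in HFFc6 and 9.14 in H1, and CTCF of 4.75 in HFFc6 against 8.15 in the hESC-named list. The strongest CTCF regions were elsewhere. One lay 14621 bp above the gene by its HFFc6 summit, at 15.8 in HFFc6 against 14.67 in the hESC-named list, and another at the upper end of the gene body, where the antisense gene HLA-F-AS1 overlaps it, at 13.67 and 16.97 in the same lists. The strongest H1 ATAC region, of 14.15, lay 20703 bp below the gene by its summit and was shared, with 3.42 in HFFc6. The sign of the HFFc6-only minus H1-only count depended on the setting. It was 1 as counted, −1 with 500 bp around each summit and −3 with 50 kb flanks.

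HLA-G, a non-classical gene known for its expression at the placenta, was unlike the other 4 heavy chain genes at its start. It lies at chr6:29826474-29831021, and RefSeq lists starts at 29826474, 29826967 and 29827825. The HFFc6 ATAC region chr6:29826442-29826975, which covered the first 2 of these, had a fold enrichment of 2.28, at percentile 5.9 of its list. The H1 ATAC region chr6:29827524-29827965 covered the other one, the start after the class I-like window shown above, and had 5.79. These regions did not overlap, so the gene counted as open at a start in both lists although no start was covered in both. A further H1-only region inside the gene had 7.67 and carried hESC-only CTCF of 3.61.

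At HLA-G the HFFc6 CTCF list had 2 regions and the hESC-named list 6. Of these, 0 were HFFc6-only and 4 were hESC-only, a difference of −4 that equalled the tenth percentile of all genes. It was the lowest of the 9 genes as counted, but it was −1 with −log10 q of at least 10, where HLA-F had −3, and −2 with equal numbers of regions, as at HLA-F, or with 10 kb flanks, as at CIITA. With 50 kb flanks it was −4 and HLA-F had −5. Both HFFc6 CTCF regions were shared. The one overlapping the pseudogene HCGVIII-2, 3800 bp above the gene by its HFFc6 summit, had 8.89 in HFFc6 against 26.33 in the hESC-named list, at percentiles 71.8 and 98.8 of those lists. ATAC there had 3.8 in HFFc6 and 12.9 in H1. The other, overlapping the non-coding gene LOC105375010, had CTCF of 11.83 in HFFc6 against 12.47 in the hESC-named list, and held the strongest ATAC regions of the gene, of 7.54 in HFFc6 and 13.28 in H1.

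**Figure D1:**
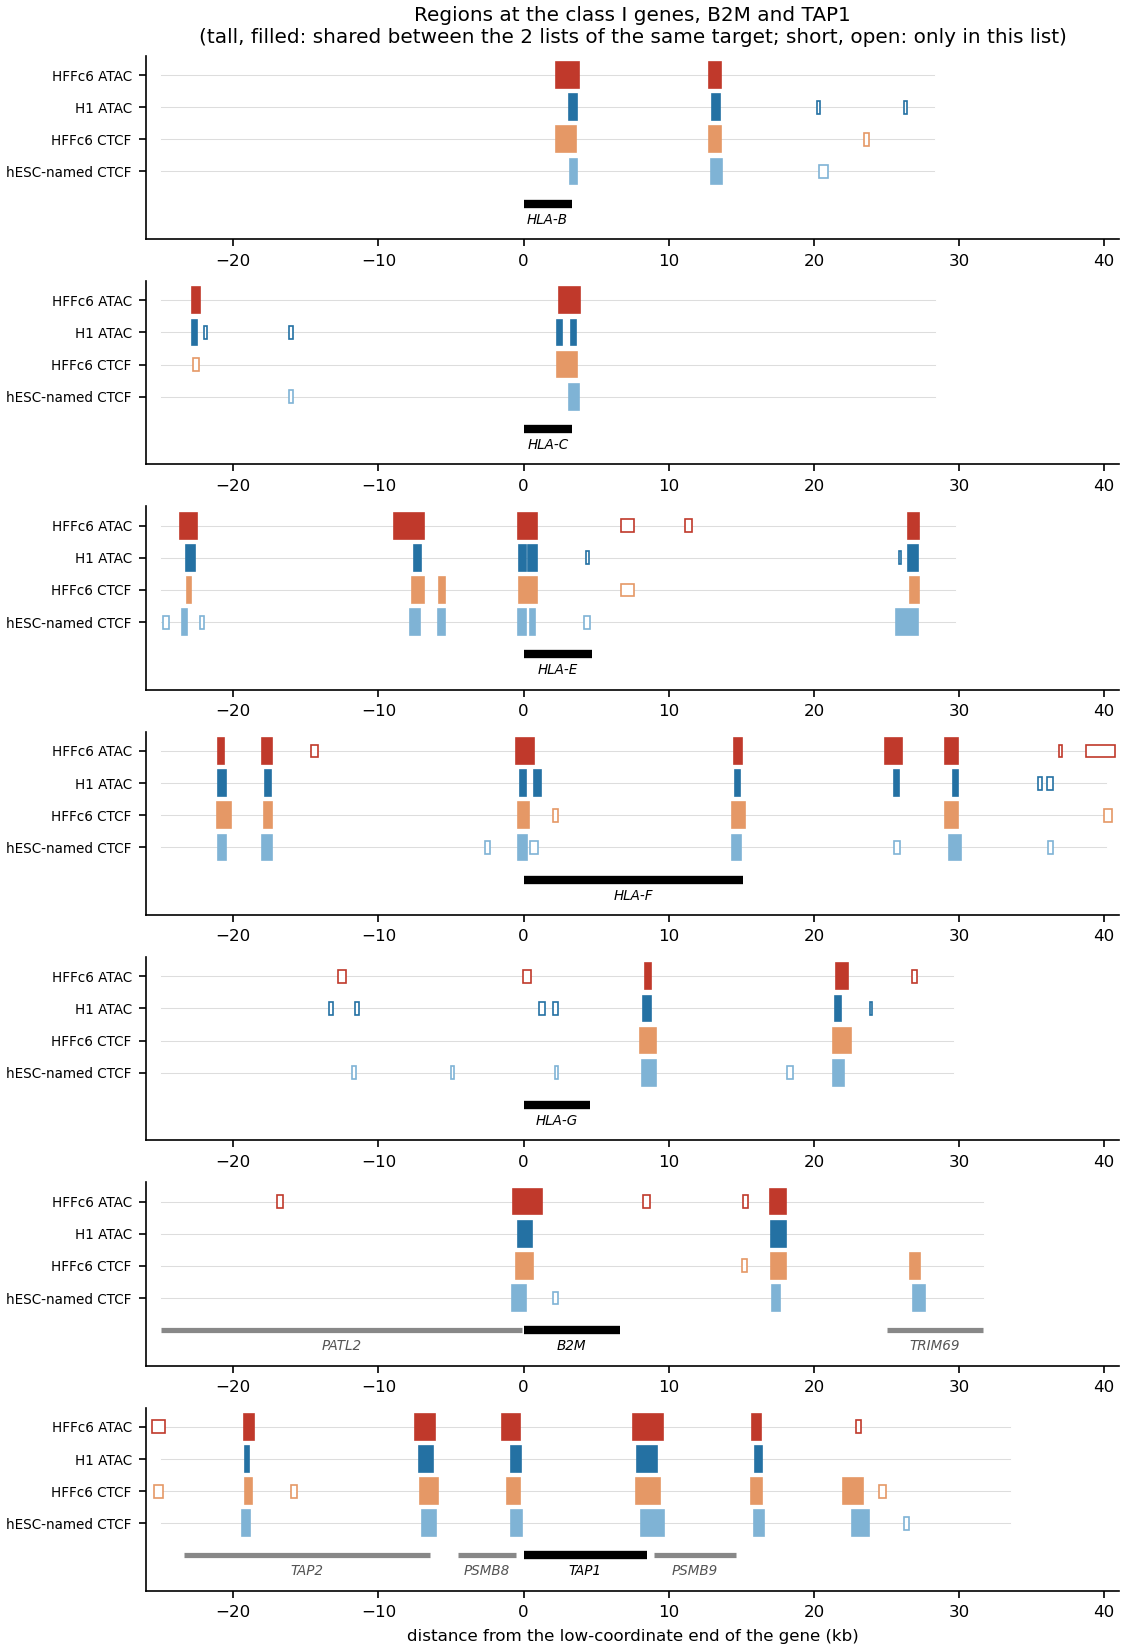
Regions of the 4 lists (rows) at the 5 class I heavy chain genes, B2M and TAP1, drawn to scale against the distance from the low-coordinate end of the gene (kb). Tall filled boxes are shared and short open boxes are in 1 list only; black bars are the genes and grey bars the other protein-coding genes. All panels but that of HLA-G show a column of 4 filled boxes at the start of the gene; HLA-G has short open boxes there.

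B2M, the light chain gene at chr15:44711517-44718145, had 5 HFFc6 and 2 H1 ATAC regions, and both H1 regions were shared. The start had the highest fold enrichment of any start among the 9 genes in the H1 list, 19.28, and had 14.43 in HFFc6; CTCF there had 9.56 in HFFc6 against 8.74 in the hESC-named list. The start of PATL2, which runs the other way, is 127 bp from that of B2M, so the region cannot be given to 1 gene. The second shared site, 10846 bp above the gene by its HFFc6 summit and overlapping the pseudogene RNF4BP, had ATAC of 13.76 in HFFc6 and 17.31 in H1 and CTCF of 10.64 in HFFc6 against 13.95 in the hESC-named list. The 3 HFFc6-only ATAC regions had low fold enrichments, from 2.85 to 4.17, but 2 of them had −log10 q of at least 10. The region of 4.17 had −log10 q of 167.3 and carried HFFc6-only CTCF of 2.59. An hESC-only CTCF region of 7.41 lay inside the gene at chr15:44713569-44713860, where neither ATAC list had a region.

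TAP1, at chr6:32845209-32853704, had 7 HFFc6 and 5 H1 ATAC regions, and all 5 in H1 were shared. The region over its second start had 13.04 in HFFc6 and 11.48 in H1. It also covered the start of the immunoproteasome gene PSMB9, 488 bp away on the other strand, and the summits lay between the 2 starts. CTCF in the same place had 15.21 in HFFc6 against 21.16 in the hESC-named list, the highest CTCF value at any start of the 9 genes in both lists. A shared site above the gene, chr6:32860949-32861593, had ATAC of 15.46 in HFFc6 and 17.38 in H1, the strongest H1 region of the gene, and CTCF of 12.52 in HFFc6 against 20.68 in the hESC-named list. Shared sites also lay at the starts of PSMB8, another immunoproteasome gene, with ATAC of 16.11 in HFFc6 and 17.2 in H1, and of TAP2, the partner subunit, with 15.24 in HFFc6 and 13.02 in H1. The TAP2 site held the strongest HFFc6 CTCF region, at 15.35. The 2 HFFc6-only ATAC regions, of 9.08 and 5.51, both carried HFFc6 CTCF. At TAP1 the 5 shared ATAC regions of either list all carried CTCF.

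CIITA, at chr16:10866206-10943021, had 16 HFFc6 and 11 H1 ATAC regions, with 8 HFFc6-only and 3 H1-only. The difference of 5 equalled the ninetieth percentile of all genes. It was the largest of the 9 genes as counted, but with −log10 q of at least 10 CIITA had 4 and NLRC5 9, with equal numbers of regions CIITA had 7 and NLRC5 8, and with 50 kb flanks CIITA and TAP1 both had 5. These counts come from windows of unlike width, 126.8 kb at CIITA and 144.0 kb at NLRC5 against 53.3 to 65.1 kb at the other genes. Per 100 kb of window, CIITA had 12.6 HFFc6 and 8.67 H1 ATAC regions, NLRC5 11.1 in each list and HLA-F 13.8 in each. CIITA is known to be read from alternative promoters, and the gene table gives only the ends of the body. Its region at an end was at the upper one, on the start of DEXI, with ATAC of 6.34 in HFFc6 and 7.09 in H1. The HFFc6-only ATAC region chr16:10870577-10871864, with its summit 5057 bp inside the gene, had 16.06, the highest of the 32 HFFc6-only ATAC regions, and carried HFFc6-only CTCF of 8.94. A second one, chr16:10960927-10961751 in the neighbour CLEC16A, had 12.06 and carried HFFc6-only CTCF of 3.59.

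The other 6 HFFc6-only ATAC regions at CIITA had fold enrichments from 1.95 to 4.7 and no CTCF region in either list. The H1-only regions had 8.61, 4.38 and 3.33, and the first and the last of these carried hESC-only CTCF. Shared ATAC regions inside the gene included one 10999 bp from its low end by the HFFc6 summit, at 7.1 in HFFc6 and 5.84 in H1, with CTCF of 6.03 in HFFc6 against 4.73 in the hESC-named list. The strongest shared ATAC region, 52697 bp from the low end by its summit in both lists, had 12.36 in HFFc6 and 16.02 in H1, with CTCF of 10.36 in HFFc6 against 18.12 in the hESC-named list. In the hESC-named list the strongest CTCF region at CIITA had 24.41 and lay in CLEC16A, where HFFc6 had 7.89. The strongest HFFc6 CTCF region, of 11.54, lay in CLEC16A too, where the hESC-named list had 21.59.

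NLRC5, the class I transactivator gene at chr16:56989557-57083520, had 16 ATAC regions in each list, most of them in 1 list only. In HFFc6 11 were HFFc6-only and 5 shared, and in H1 10 were H1-only and 6 shared. Of the HFFc6-only regions 9 of 11 had −log10 q of at least 10, near the 82.3% of HFFc6-only regions at all genes, and of the H1-only regions 1 of 10 did, beside 40.0% at all genes. The median fold enrichment was 7.17 over the HFFc6-only and 3.72 over the H1-only regions, each on its own list's scale. The difference of the counts was 1 as counted, 9 with −log10 q of at least 10, 8 with equal numbers of regions from both lists and −1 with 10 kb flanks. The start, taken at the low end, was shared, with ATAC of 8.8 in HFFc6 and 7.47 in H1 and CTCF of 7.06 in HFFc6 against 3.24 in the hESC-named list.

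Inside NLRC5, 4 HFFc6-only ATAC regions carried CTCF that was HFFc6-only too. They were chr16:57000113-57001277 with ATAC of 14.91 and CTCF of 5.38, chr16:57013030-57013874 with 14.09 and 5.34, chr16:57028657-57029676 with 11.52 and 3.06, and chr16:57071986-57072796 with 10.5 and 5.61. At the third of these the ATAC summit was 39804 bp and the CTCF summit 39799 bp from the low end of the gene. The HFFc6 ATAC and CTCF lists both come from assays that use Tn5; the part of the shared enzyme in such overlaps was not tested. Of all 9 HFFc6-only CTCF regions at NLRC5, 8 lay in HFFc6 ATAC regions, and 1 of those also overlapped an H1 region.

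In H1, 2 H1-only ATAC regions inside NLRC5 carried hESC-only CTCF, with ATAC of 5.96 and CTCF of 5.3 at one and ATAC of 3.25 and CTCF of 4.71 at the other. The H1-only ATAC region chr16:57045690-57046239 had 10.67 while the other 9 H1-only regions had from 3.25 to 6.06. CTCF was present there in both lists, at 4.7 in HFFc6 against 10.32 in the hESC-named list, so this CTCF site was listed in HFFc6 without an ATAC region. The strongest CTCF region at NLRC5 in both lists was shared and lay in CETP, 24743 bp below the gene by its HFFc6 summit, with 15.54 in HFFc6 against 26.53 in the hESC-named list. The H1 ATAC region there, of 16.87, was the strongest of the gene in that list. NLRC5 had the largest CTCF difference of the 9 genes, 9 HFFc6-only against 2 hESC-only. That difference of 7 stood beside a ninetieth percentile of 3 over all genes, and the NLRC5 window of 144.0 kb was the widest of the 9.

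**Figure D2:**
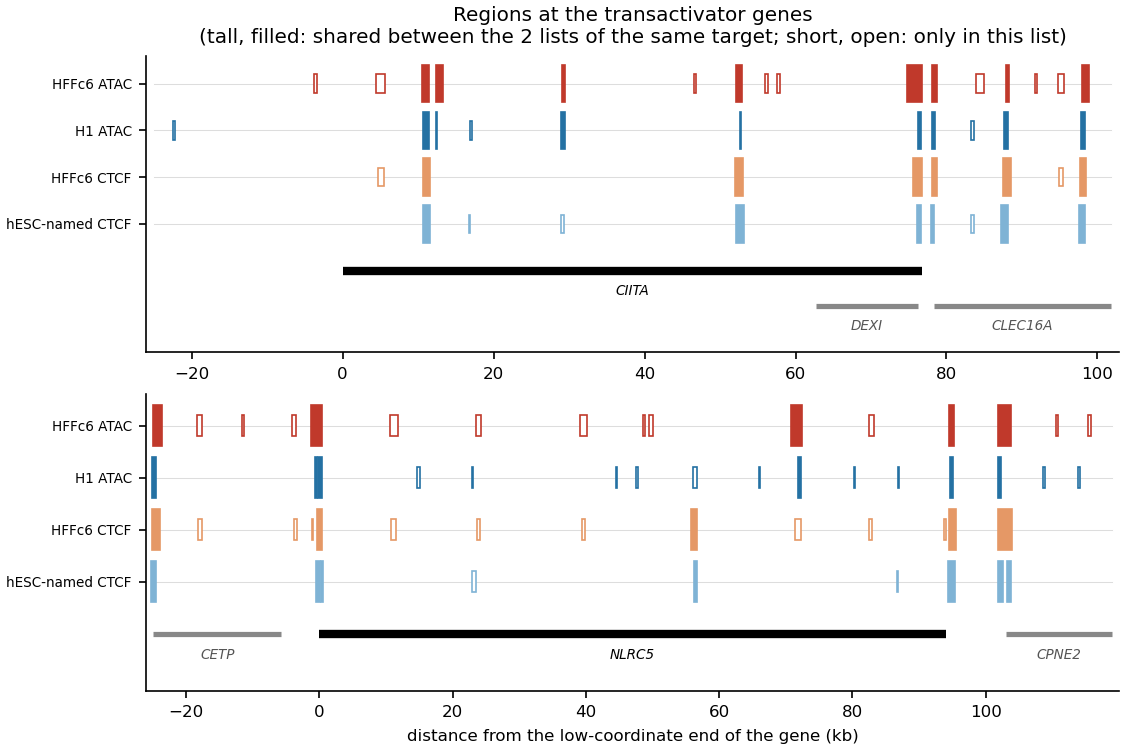
Regions of the 4 lists (rows) at CIITA and NLRC5, drawn to scale against the distance from the low-coordinate end of the gene (kb), with tall filled boxes shared and short open boxes in 1 list only. CIITA has 8 open boxes in the HFFc6 ATAC row and 3 in the H1 row, and NLRC5 has 11 and 10.

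Over the 9 genes, 5 had more HFFc6-only than H1-only ATAC regions (B2M, TAP1, HLA-F, CIITA and NLRC5), as did 45.5% of all protein-coding genes. HLA-B, HLA-C and HLA-G had fewer, as did 39.3% of all genes, and HLA-E had equal numbers. The median difference was 1 over the 9 genes and 0 over all genes. For CTCF, TAP1 and NLRC5 had more HFFc6-only than hESC-only regions, against 34.2% of all genes, and HLA-E, HLA-F, HLA-G and CIITA had fewer, against 44.4%. These counts are close to those of all genes, and they moved with the settings.

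**Figure D3:**
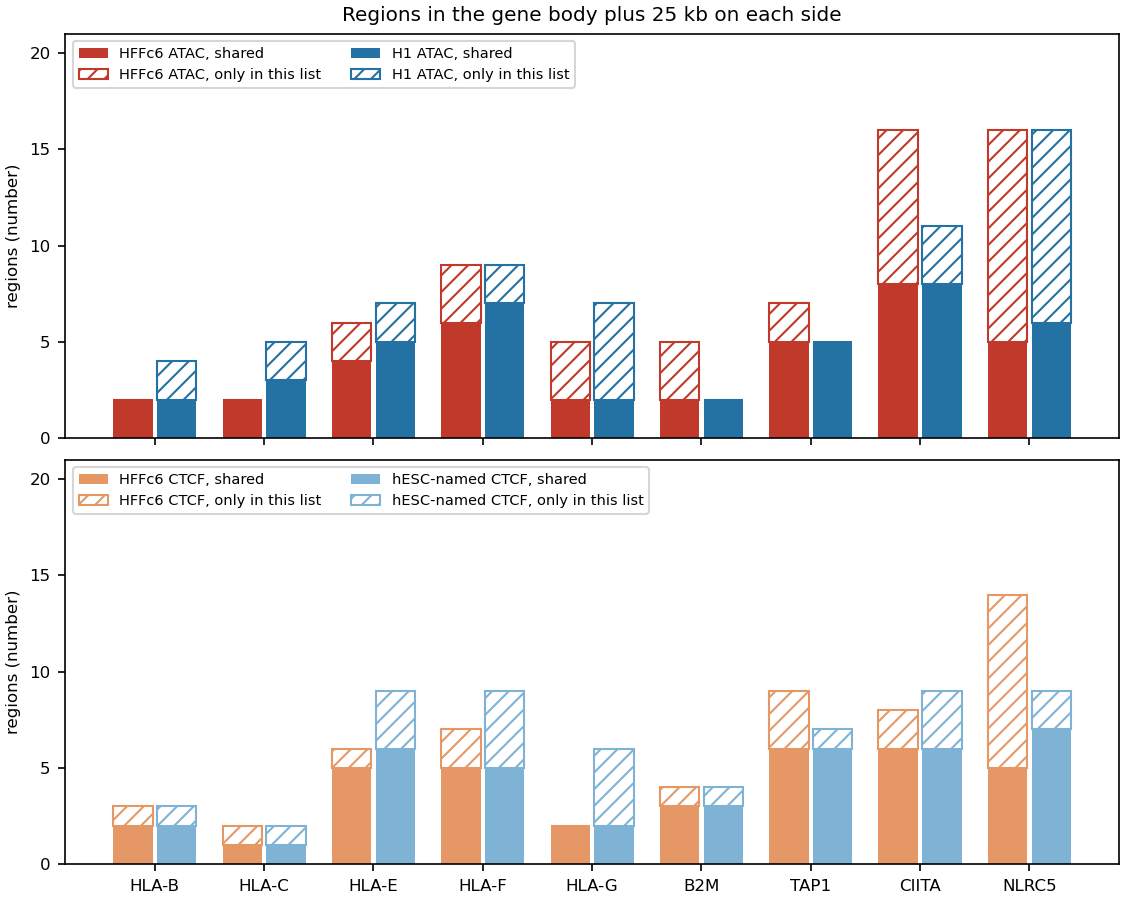
Number of ATAC regions (top) and CTCF regions (bottom) at each of the 9 genes, in HFFc6 (left bar) and in H1 or the hESC-named list (right bar); filled parts are shared and hatched parts are in 1 list only. HLA-B and HLA-C have no hatched HFFc6 ATAC part, and B2M and TAP1 no hatched H1 part. The HFFc6 ATAC bar of CIITA and both ATAC bars of NLRC5 reach 16 regions.

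Pooled over the 9 genes, regions of each list were shared more often than at all protein-coding genes, but this did not hold at every gene. At TAP1 5 of 7 HFFc6 and 5 of 5 H1 ATAC regions were shared, and at NLRC5 5 of 16 and 6 of 16. In the HFFc6 ATAC list 36 of 68 were shared, 52.9% (95% Wilson interval 41.2 to 64.3), beside 37.4% at all genes. In the H1 ATAC list 40 of 66 were shared, 60.6% (48.55 to 71.5), beside 38.8%. For CTCF the shares were 35 of 55 or 63.6% (50.4 to 75.1) in HFFc6, beside 52.5%, and 38 of 58 or 65.5% (52.7 to 76.4) in the hESC-named list, beside 46.9%. The interval of the HFFc6 CTCF share includes the 52.5% at all genes. The intervals cover counting error only, and regions at 1 gene share a locus and are not replicates.

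Shared ATAC regions at the 9 genes nearly all carried CTCF. In HFFc6 33 of 36 shared regions did, 91.7%, beside 74.3% at all genes, and 13 of 32 HFFc6-only regions did, 40.6%, beside 33.1%. In H1 36 of 40 shared regions carried CTCF of the hESC-named list, 90%, beside 68.0%, and 12 of 26 H1-only regions did, 46.2%, beside 34.0%. Seen from CTCF, 47 of 55 HFFc6 CTCF regions lay in HFFc6 ATAC regions, 85.5%, close to the 84.4% at all genes. For the hESC-named list 47 of 58 lay in H1 ATAC regions, 81.0%, beside 72.9%. Of the HFFc6-only CTCF regions 15 of 20 were in HFFc6 ATAC, 75%, beside 85.4%, and of the shared ones 32 of 35, 91.4%, beside 83.4%.

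Shared regions also had the higher median fold enrichment in each list, at the 9 genes as at all genes, although the ranges overlapped. In the HFFc6 ATAC list the median fold enrichment was 10.3 over 36 shared and 4.88 over 32 HFFc6-only regions, and over all genes it was 8.17 and 5.26. In the H1 ATAC list it was 11.4 over 40 shared and 4.21 over 26 H1-only regions, and over all genes 7.89 and 5.21. For CTCF the medians were 9.38 shared and 3.88 HFFc6-only in the HFFc6 list, and over all genes 8.2 and 4.55. In the hESC-named list they were 13.1 shared and 4.42 hESC-only, and over all genes 11.7 and 5.01. Of the HFFc6-only ATAC regions 21 of 32 had −log10 q of at least 10, beside 82.3% at all genes, and of the H1-only regions 7 of 26, beside 40.0%. The list-specific regions with the highest fold enrichment were at CIITA, NLRC5 and HLA-E in the HFFc6 ATAC list and at HLA-F, with 13.22, in the H1 ATAC list.

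**Figure D4:**
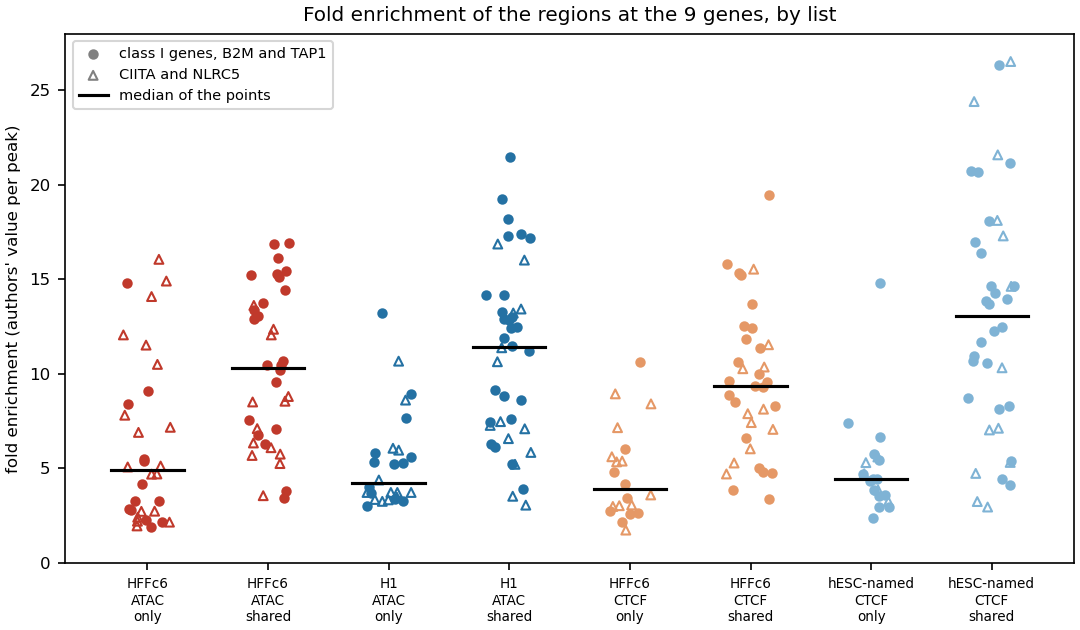
The authors' fold enrichment of each region at the 9 genes, by list and by whether the region is only in that list or shared; points are regions, triangles those at CIITA and NLRC5, and black lines the medians. In every list the shared regions have the higher median, and in the HFFc6 ATAC list 6 of the 7 HFFc6-only regions above 10 are triangles.

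Other genes of the pathway were read the same way. Among 11 genes of peptide supply and loading, 10 had ATAC at the start in both lists, beside 70.1% of all genes. More HFFc6-only than H1-only regions were listed for 8 of them, beside 45.5%, fewer for 2, beside 39.3%, and equal numbers for 1. TAPBP, which encodes the bridging chaperone tapasin, had a start region in HFFc6 alone. ERAP1, a peptide-trimming aminopeptidase, had 15 HFFc6-only and 11 H1-only regions, PSMB8 had 3 and 0, and CANX, the chaperone calnexin, had 1 and 4. The windows of TAP2, PSMB8 and PSMB9 overlap that of TAP1, and those of ERAP1 and ERAP2 overlap each other, so these counts share regions.

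All 7 genes for factors of the SXY module (RFX subunits, CREB1 and NF-Y subunits) and all 9 interferon pathway genes had ATAC at the start in both lists. Of the 7 SXY factor genes 4 had more HFFc6-only than H1-only regions, 2 fewer and 1 equal, and of the 9 interferon genes 5 had more, 3 fewer and 1 equal, beside 45.5% more and 39.3% fewer over all genes. NFYC had 9 HFFc6-only and 3 H1-only regions, CREB1 8 and 4, and NFYA 5 and 1, while RFXAP had 0 and 2 and RFXANK 1 and 3, both named after their values were seen. IFNGR1, a chain of the interferon-gamma receptor, had 5 HFFc6-only and 0 H1-only regions, and the kinase gene JAK2 had 6 and 11. The median difference was 1 over the SXY factor genes and 3 over the interferon genes, against 0 over all genes.

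Class II genes, the main targets of CIITA, included 1 of 9 with more HFFc6-only than H1-only ATAC regions, 6 with fewer and 2 equal, beside 45.5% more and 39.3% fewer over all genes. ATAC was at the start in both lists for 6 of the 9, beside 70.1% of all genes. HLA-DPB1 had a start region in HFFc6 alone, CD74, the invariant chain, in H1 alone, and HLA-DQA1 in neither list. HLA-DRB1 had 0 HFFc6-only and 3 H1-only regions, HLA-DMA 0 and 2, and CD74 4 and 1. These genes lie in the same part of chromosome 6 as each other, CD74 excepted, and several have close copies, so the counts are not independent and carry the limit on read placement given above.

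The pattern of 6 counts (HFFc6-only, H1-only and shared ATAC, and HFFc6-only, hESC-only and shared CTCF) was compared with that of all other protein-coding genes by the sum of absolute differences. ARL6IP1, GRAPL and TERB1 matched HLA-B at a distance of 0, M6PR and ZNF613 matched HLA-C, EEF1AKMT2 and ZNF296 matched HLA-E, ZBTB44 matched HLA-G and SOAT1 matched B2M. The nearest to HLA-F was FAM221B at 1, and 4 genes tied for TAP1 at 1. CIITA had CDH5 and CLCN2 at 3, and NLRC5 had DIPK1A at 5, the largest of these distances.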

How the data were processed

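The measurements were ATAC-seq and CTCF peak lists in narrowPeak format, 1 per group. The submitters' processing notes name BWA, MACS2 and bedtools and the hg38 build, without saying which step made which list. The deposited columns give each peak a score, a fold enrichment (linear ratio), −log10 p, −log10 q and a summit, as the authors' peak caller wrote them; the score and p were not used. The lowest −log10 q was 1.3 in the H1 list. The files give no read counts, so depth is unknown.

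Peaks were placed against RefSeq genes (GRCh38.p14) with Python 3.11.15, numpy 2.4.6, pandas 2.3.3 and scipy 1.17.1, and promoter windows were aligned with biopython 1.88. Overlap needed 1 bp, windows reached 25 kb, and a start window 1 kb. Overlap rules were tested on 600 simulated regions, with 0 disagreements. No test was run between groups. The genes and lists were chosen with earlier results of these data known. Named regions are the strongest of each gene in each list and those at starts, and others described were chosen after their values were seen. Other genes are named by a start in 1 list or neither, or by the 3 largest differences. Some genes of these lists are not reported here. Alternatives are given in the closing section.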

Additional observations from a re-analysis of the deposited data

How the results depend on the processing

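The counts at starts and most shares kept within 1.5 times or the interval of the reported value. With each summary value counted once under each alternative setting, 58 of these pairs did so and 16 did not. With −log10 q of at least 10, the shared share became 83.3% in H1 ATAC, beside 50.2% at all genes under that setting. It became 80.0% in hESC-named CTCF, beside 56.3%, and 92.9% of HFFc6 CTCF lay in HFFc6 ATAC, beside 89.9%. Under the same setting the summed difference (HFFc6-only minus stem cell-only regions over the 9 genes) was 17 for ATAC, against 6 as counted. For CTCF it was 4, against 0. With equal numbers of regions, the H1 ATAC shared share was 73.6%, beside 42.7% at all genes under that setting. The sums were then 19 and 9, and 4 genes had more HFFc6-only CTCF, against 2. With 500 bp around summits the sums were 1 and −4, and with a 50% overlap the CTCF sum was −1. With 10 kb flanks 3 genes had more HFFc6-only ATAC, against 5, and 1 more HFFc6-only CTCF, with a CTCF sum of 1; with 50 kb flanks that sum was −7. The difference of single genes changed sign in 7 cases: CTCF at CIITA to 2 (−log10 q of at least 10, and 50 kb flanks), at HLA-E to 1 (equal numbers) and at TAP1 to −1 (50 kb), and ATAC at HLA-F to −1 (500 bp summits) and −3 (50 kb) and at NLRC5 to −1 (10 kb). The cause was not tested. The low-end start was chosen after seeing the data. No paired analysis was possible because each list pools its libraries. Depth is unknown, so a region missing from a list is not shown to be closed or unbound.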
